A study of Homo sapiens with 2 samples.

Results

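Peaks of TET1 were described here over 9 genes of the histone methylation machinery: the demethylase genes KDM6B and KDM2B, the methyltransferase genes SETD1A, SETD1B, KMT2A, KMT2B, KMT2D and EZH2, and BAHCC1. Each gene was given as a span in whole kb on hg19, the span was widened by 10 kb on each side to a window, and every deposited peak touching a window by at least 1 bp was taken. This gave 48 of the 46207 peaks on the human chromosomes. BAHCC1 carries no methyltransferase or demethylase domain. It encodes a protein that binds methylated histone H3, so the name histone methylation enzyme covers 8 of the 9 genes. The genes were chosen with the peaks over them already known, so peak number, width, score and position below are a description and no test was run on them.

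The cells were day 7 cardiac progenitors made from H1, an established human embryonic stem cell line whose endogenous TET1 gene carried a V5 tag. They had received 6 µM CHIR99021, a WNT activator, until day 2 and 5 µM IWP2, a WNT inhibitor, from day 3 to day 5. The V5 ChIP group held 1 library and the input group 1 library, both from these cells, and both are labelled Wild type for genotype. Whether the tagged line was 1 clone is not stated in the labels, and a V5 ChIP from untagged cells was not analysed here, so antibody signal from other sources cannot be told apart from TET1 signal.

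Histone methyltransferases of the SETD1 and KMT2 families place methyl groups on lysine residues of histone H3 that mark promoters and enhancers in use. EZH2 is the catalytic subunit of Polycomb repressive complex 2, which places the repressive mark, and KDM6B removes that mark. TET1 oxidises methylated cytosine in DNA and carries a CXXC zinc finger, a fold that binds unmethylated CpG. KMT2A, KMT2B and KDM2B carry a CXXC zinc finger too, and both families of marks are known to shift at heart genes as stem cells become cardiac cells.

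The score of a peak is the authors' own value. It begins at 50 in this list, most of the highest values are tied at 3100, and scores of 3100 or more are treated as 1 class, called the ceiling. Read depth was unknown, and each value comes from 1 library without a replicate. Across the 9 windows, 9 of 48 peaks stood at the ceiling (whole list 4.69%), all of them at exactly 3100, and 15 scored 1000 or more (whole list 18.6%). Peaks of 5 kb or wider numbered 6 (whole list 3.20%) and those of 10 kb or wider numbered 3 (whole list 0.290%). All 6 stood at the ceiling, and of all ceiling peaks in the list 30.9% reached 5 kb and 4.11% reached 10 kb. At the low end, 12 scored below 100 (whole list 32.9%). The member peaks had a median score of 294 and a median width of 2109 bp, beside 172 and 1531 bp in the whole list. Since the genes were picked from these same values, nothing is read from the gap between the shares.

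The strong peaks sat at the start of the genes. A peak lay over the start edge of the span, or within 1 kb upstream of it, at each of the 9 genes. Of these 9 start peaks, 8 stood at the ceiling. Among the other 39 members 1 did, a peak past the end of KMT2A. The share of all gene starts with a peak or a ceiling peak was not computed, since hg19 annotation was not used. The 8 of 9 is therefore not read as a trait particular to these genes. The start peaks ranged from 2941 to 27017 bp with a median width of 6279 bp, while the other members ranged from 736 to 4697 bp with a median of 1796 bp and had a median score of 188. The start peaks thus differed in score and width from most of the rest, although KDM2B, SETD1A, KMT2A, KMT2B and BAHCC1 each had a further peak above 1000. A wide peak is more likely to touch an edge, so the difference in width is partly built in. The KDM6B peak passed both edges of its span and was counted at the start. Exons, introns and untranslated regions on hg19 were not used, so a peak is placed by its distance from the span edge alone. A later start within a gene is therefore not counted as a start edge.

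**Figure D1:**
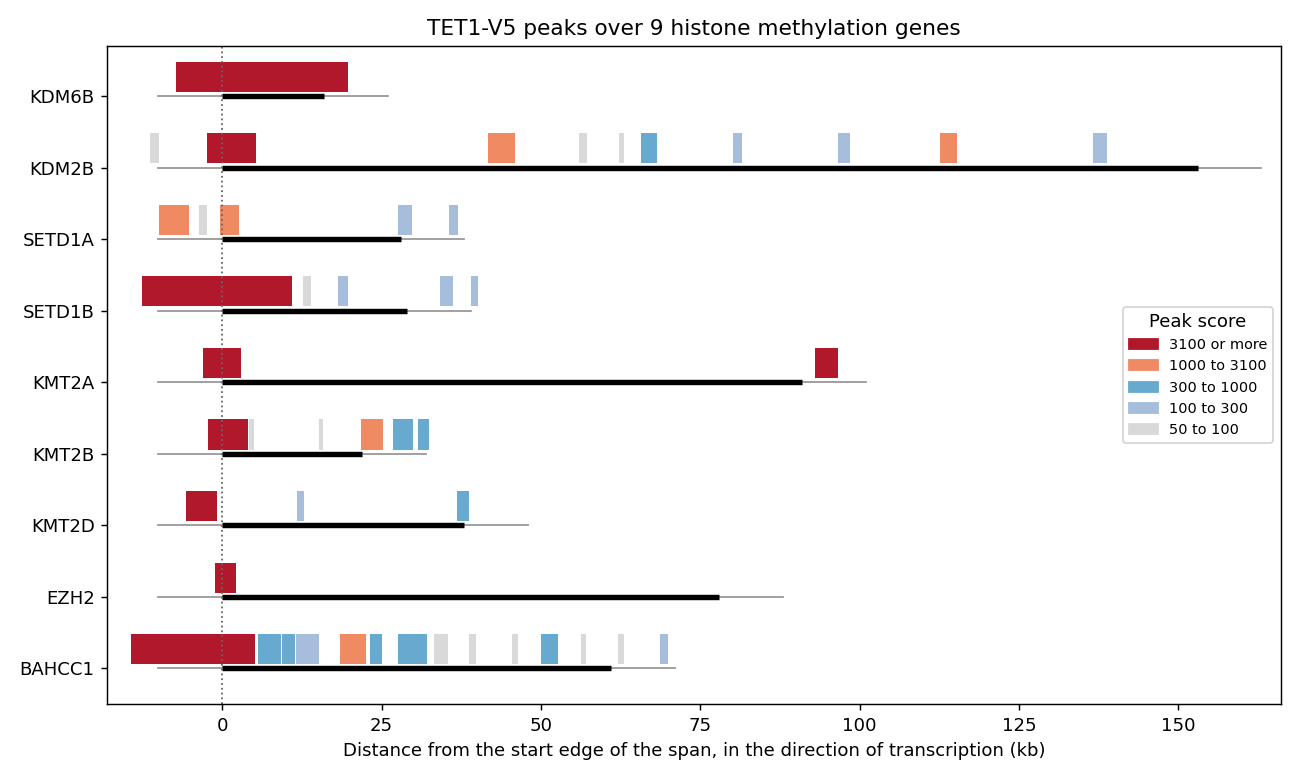
Peaks over each gene, drawn to scale as boxes coloured by score. The horizontal axis gives the distance in kb from the start edge of the span in the direction of transcription, the thick line is the span and the thin line the window. The 9 start peaks lie at or next to the dotted line, KDM6B is covered from end to end, and the bodies of KMT2A and EZH2 are bare.

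CXXC fingers bind CpG dinucleotides, so the CpG content of the promoters is shown beside the peaks. It was not itself used to choose the genes, but they were chosen with their peaks known, so it is a description and not an independent check. RefSeq promoters on GRCh38.p14 were matched by symbol for 8 of the 9 genes, which have 13 promoters between them. SETD1B was not matched. The 250 bases before each start are printed for each of the 8 genes, 5′ to 3′ in the direction of the gene, with every CG in capitals. KDM6B and KDM2B are shown with 2 promoters each because their starts differ in CpG content, and the other genes with their first or sole promoter. These positions are on GRCh38.p14 and cannot be set beside the hg19 peak positions, so only the spacing of promoters within 1 gene is used.
KDM6B promoter 1, GRCh38.p14 chr17:7833967-7834216, plus strand: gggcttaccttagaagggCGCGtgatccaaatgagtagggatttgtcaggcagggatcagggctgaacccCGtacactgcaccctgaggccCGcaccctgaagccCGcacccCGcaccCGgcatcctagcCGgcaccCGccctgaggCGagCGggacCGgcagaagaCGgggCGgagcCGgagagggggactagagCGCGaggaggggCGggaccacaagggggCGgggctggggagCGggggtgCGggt
KDM6B promoter 2, GRCh38.p14 chr17:7839667-7839916, plus strand: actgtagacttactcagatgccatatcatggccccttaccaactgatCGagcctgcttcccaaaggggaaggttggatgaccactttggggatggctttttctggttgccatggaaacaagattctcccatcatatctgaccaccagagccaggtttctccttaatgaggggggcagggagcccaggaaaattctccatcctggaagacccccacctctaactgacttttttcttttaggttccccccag
KDM2B promoter 1, GRCh38.p14 chr12:121581024-121581273, minus strand: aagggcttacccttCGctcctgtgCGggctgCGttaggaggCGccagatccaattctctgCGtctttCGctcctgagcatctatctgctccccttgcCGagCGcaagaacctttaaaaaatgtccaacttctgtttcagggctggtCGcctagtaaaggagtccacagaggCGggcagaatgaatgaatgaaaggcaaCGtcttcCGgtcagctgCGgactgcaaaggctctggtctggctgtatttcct
KDM2B promoter 4, GRCh38.p14 chr12:121467379-121467628, minus strand: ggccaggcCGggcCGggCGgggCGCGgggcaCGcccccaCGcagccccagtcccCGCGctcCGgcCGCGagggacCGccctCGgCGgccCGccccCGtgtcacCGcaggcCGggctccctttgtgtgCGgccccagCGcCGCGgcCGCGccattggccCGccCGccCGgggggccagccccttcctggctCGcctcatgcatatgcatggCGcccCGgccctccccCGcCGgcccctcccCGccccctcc
SETD1A promoter, GRCh38.p14 chr16:30957504-30957753, plus strand: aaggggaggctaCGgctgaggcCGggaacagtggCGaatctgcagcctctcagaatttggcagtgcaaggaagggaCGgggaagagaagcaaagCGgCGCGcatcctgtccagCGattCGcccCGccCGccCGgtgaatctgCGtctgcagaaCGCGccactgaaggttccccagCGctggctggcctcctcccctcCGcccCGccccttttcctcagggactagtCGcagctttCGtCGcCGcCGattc
KMT2A promoter, GRCh38.p14 chr11:118436242-118436491, plus strand: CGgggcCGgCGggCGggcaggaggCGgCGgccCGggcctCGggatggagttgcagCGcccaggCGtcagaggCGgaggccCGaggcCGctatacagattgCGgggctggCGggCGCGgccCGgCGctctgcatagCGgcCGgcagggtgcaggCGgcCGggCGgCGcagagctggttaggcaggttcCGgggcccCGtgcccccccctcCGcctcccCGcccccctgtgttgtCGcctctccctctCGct
KMT2B promoter, GRCh38.p14 chr19:35717753-35718002, plus strand: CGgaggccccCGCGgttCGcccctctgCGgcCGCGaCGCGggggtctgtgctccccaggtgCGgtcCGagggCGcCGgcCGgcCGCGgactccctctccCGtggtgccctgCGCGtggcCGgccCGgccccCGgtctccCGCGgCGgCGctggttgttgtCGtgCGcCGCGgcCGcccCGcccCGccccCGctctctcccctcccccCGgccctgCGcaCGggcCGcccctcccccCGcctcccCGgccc
KMT2D promoter, GRCh38.p14 chr12:49060795-49061044, minus strand: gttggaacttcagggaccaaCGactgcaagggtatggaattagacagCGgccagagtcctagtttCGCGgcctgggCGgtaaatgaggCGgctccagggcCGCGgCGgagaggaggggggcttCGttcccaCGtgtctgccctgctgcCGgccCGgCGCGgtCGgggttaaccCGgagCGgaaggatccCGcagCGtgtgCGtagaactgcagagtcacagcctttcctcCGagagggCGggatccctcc
EZH2 promoter 1, GRCh38.p14 chr7:148884292-148884541, minus strand: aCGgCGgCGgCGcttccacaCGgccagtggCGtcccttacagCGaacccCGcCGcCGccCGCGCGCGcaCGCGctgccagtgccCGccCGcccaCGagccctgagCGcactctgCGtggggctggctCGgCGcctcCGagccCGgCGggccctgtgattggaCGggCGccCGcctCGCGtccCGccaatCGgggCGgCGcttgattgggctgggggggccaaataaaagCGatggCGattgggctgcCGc
BAHCC1 promoter, GRCh38.p14 chr17:81395207-81395456, plus strand: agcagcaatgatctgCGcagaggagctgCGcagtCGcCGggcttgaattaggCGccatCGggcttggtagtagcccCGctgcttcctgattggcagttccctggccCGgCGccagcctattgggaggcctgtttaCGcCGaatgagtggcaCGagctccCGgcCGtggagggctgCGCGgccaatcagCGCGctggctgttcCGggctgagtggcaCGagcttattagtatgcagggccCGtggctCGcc

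The motif searched was CG, which reads the same on both strands, and 93.9% of the 35116 promoters in the table hold at least 1. The KMT2B promoter held 40 CG in its 250 bases, and 2.16% of all promoters held at least as many. EZH2 had 38 and 39 at its 2 promoters (3.28% and 2.65% of all promoters held at least as many), and KMT2A had 31 (10.9%). SETD1A and KMT2D had 23 each (25.8%), and BAHCC1 had 22 (28.0%). The median over all promoters was 11 (quartiles 3 and 23).

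KDM6B and KDM2B had promoters of unlike kinds. At KDM6B the first held 21 (30.2%) and the second 1 (93.9%). At KDM2B the 4 promoters held 13, 32, 11 and 34 in the order of transcription (46.6%, 9.52%, 50.3% and 6.84%). In all, 12 of the 13 promoters were at or above the table's median, where 50.3% of all promoters were, and 6 of the 8 genes had a promoter at or above the upper quartile, where 25.8% of promoters were. A gene with several promoters has more chances to reach a limit than a single promoter, and neighbouring promoters of 1 gene share sequence context. The SETD1A promoter held as many CG as that of KMT2D, while the SETD1A start peak scored below the ceiling and that of KMT2D at it. Whether either start peak covers the promoter counted was not tested, so nothing is read from this pair.

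**Figure D2:**
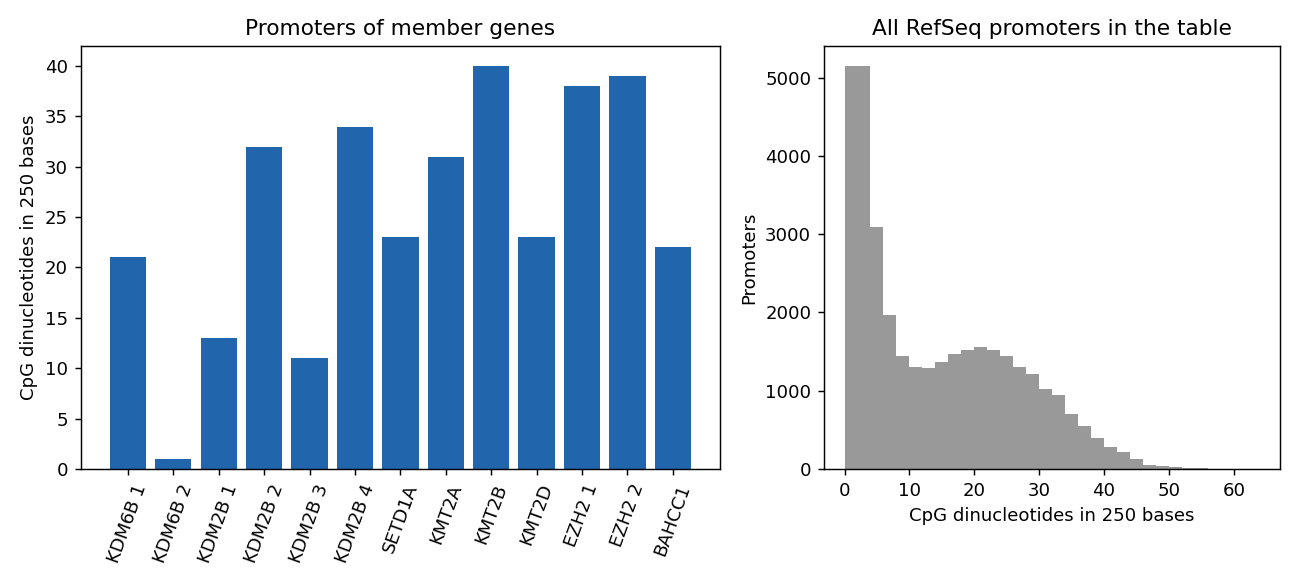
CpG dinucleotides in the 250 bases before each start. Left, 1 bar per promoter of the member genes, numbered in the direction of transcription where a gene has several, and right, the distribution over all 35116 promoters. KMT2B (40) and EZH2 (38 and 39) lie far to the right of the median of 11, and the second KDM6B promoter holds 1.

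Among the demethylase genes, KDM6B was covered whole. KDM6B, also called JMJD3, removes methyl groups from lysine 27 of histone H3. Its window held 1 peak, on chromosome 17 from 7735742 to 7762758, which is 27017 bp wide and stood at 3100. It began 7258 bp before the start edge of the 16 kb span and ended 19758 bp after it, so 100% of the span and 75.0% of the window were covered. Only 3 peaks in the list were wider, and of the 2165 peaks at the ceiling 3, or 0.139%, were at least as wide as this one, itself included (shares of ceiling peaks below are counted the same way). The gene is 20.6 kb long in RefSeq, longer than the span used. Where the part before the start edge lies relative to the longer gene was not tested. DNAH2 is the next protein-coding gene upstream and TMEM88 the next downstream in RefSeq. A peak that passes both span edges may therefore also extend into either of them, and the peak list does not divide it.

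KDM2B showed another pattern, with separate peaks along a long gene. KDM2B demethylates histone H3 and recruits a variant Polycomb repressive complex 1 to CpG islands through its CXXC finger. Of its 10 peaks, 9 were spread over a 153 kb span on the minus strand of chromosome 12, of which 14.6% was covered. The start peak, from 122013722 to 122021361, was 7640 bp wide and stood at the ceiling, where 10.6% of peaks were as wide. The 36479 bp after it held no peak. Further along came a peak at 3020.52 from 121973140 to 121977242, which lay 41758 to 45860 bp from the start edge, and a peak at 2882.67 from 121903685 to 121906481, which lay 112519 to 115315 bp from it. Both fell just short of the ceiling. The other 6 peaks in the span scored from 50.92 to 338.06, and the last member, 83.76, touched only the upstream bound of the window. RefSeq gives the gene 174 kb, more than the 153 kb of the span, and lists 4 promoters for it. On GRCh38.p14 the first lies at 121581024 to 121581273. The fourth, with 34 CG, lies well inside the gene at 121467379 to 121467628. The 2882.67 peak lay 112519 to 115315 bp from the start edge, which is close to the spacing of these 2 promoters. The 2 distances can be compared only if the start edge lies at the first promoter, which was not tested. Whether the 2882.67 peak or any other covers a later start was not tested either. RNF34 overlaps KDM2B in the same annotation, so a peak within the span is not by position alone a KDM2B peak.

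SETD1A and SETD1B, the catalytic subunits of the COMPASS complexes that trimethylate lysine 4 of histone H3, differed in their start peaks. SETD1B carried a peak of 23570 bp at the ceiling on chromosome 12 from 122229461 to 122253030. It ran from 12539 bp before the start edge to 11030 bp after it, past the window's bound, and covered the first 3 of 10 equal bins of the span completely. Of the ceiling peaks, 0.185% were as wide. The 4 other peaks of its window scored 95.17, 187.72, 205.47 and 100.97. In RefSeq the gene is 42.5 kb long against a span of 29 kb, and RHOF overlaps it, and where the part before the start edge lies relative to the longer gene was not tested. The strand of SETD1B was taken from general knowledge.

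SETD1A had the only window of the 9 without a ceiling peak. Its start peak, on chromosome 16 from 30967731 to 30970671, was 2941 bp wide with a score of 2143.47, the narrowest and lowest of the 9 start peaks. The highest score in the window belonged to another peak, 2616.96 from 30958079 to 30962775, which ended 5225 bp before the start edge. The next protein-coding genes on that side are ORAI3 and FBXL19. The end edge carried a peak of 116.59, and the 24972 bp between it and the start peak were free of peaks. The paralogous pair therefore differed in start-peak width by 23570 bp at SETD1B against 2941 bp at SETD1A, in 1 library and without an error for either value.

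KMT2A and KMT2B, close relatives that both carry a CXXC finger and act at CpG-rich promoters, had start peaks of similar width. The KMT2A peak on chromosome 11 from 118304055 to 118309967 was 5913 bp wide, and the KMT2B peak on chromosome 19 from 36205756 to 36212034 was 6279 bp wide. Both were at the ceiling, where 20.4% of peaks were as wide as the first and 17.9% as wide as the second. The KMT2A peak was centred on the start edge, reaching 2945 bp before it and 2967 bp after it. After each peak the genes parted: the next 90078 bp at KMT2A held no peak, and 15.7% of the gaps between neighbouring peaks in the list were as long.

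The second KMT2A member lay beyond the gene, from 118400046 to 118403600, at the ceiling. TTC36 and TMEM25 are the next protein-coding genes in that direction, and this was the only one of the 9 ceiling peaks that was not at a start edge. KMT2B is a compact gene with a 22 kb span, of which 26.0% was covered. Weak peaks of 52.53 and 59.19 lay in its body. The end edge carried a peak of 1439.81, and peaks of 686.35 and 320.16 followed downstream. In RefSeq IGFLR1 overlaps KMT2B, and U2AF1L4 and PSENEN are the next protein-coding genes downstream. Chromosome 19 as a whole was 12.0% covered by peaks and chromosome 11 3.92%.

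KMT2D, which monomethylates lysine 4 of histone H3 at enhancers and is mutated in Kabuki syndrome, had 3 peaks. The ceiling peak on chromosome 12 from 49450829 to 49455628 was 4800 bp wide, and 33.8% of ceiling peaks were as wide. It lay wholly outside the span, its nearer bound 829 bp before the start edge, and was counted as a start peak under the 1 kb limit. RefSeq gives the gene 41.8 kb, more than the 38 kb of the span. A peak of 110.11 stood in the body and one of 464.14 at the end edge, and 8 of 10 equal bins of the span had no covered base.

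EZH2 had the least coverage of the 9 genes. Its sole peak, on chromosome 7 from 148579819 to 148583141, reached from 1141 bp before the start edge to 2181 bp after it. It stood at the ceiling with a width of 3323 bp, which was below the median of 3977 bp over all ceiling peaks, and 68.5% of ceiling peaks were as wide. No other peak lay in the 98 kb window. The next one downstream was 182229 bp away, and 7.60% of gaps in the list were as long. The score of EZH2 thus equalled that of KDM6B, at a width of 3323 bp against 27017 bp, and the tie at the ceiling leaves their order unresolved.

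BAHCC1, whose protein reads trimethylated lysine 27 of histone H3 through a BAH domain, had the most peaks, 15 in a window of 81 kb. The start peak, on chromosome 17 from 79358696 to 79378128, was 19433 bp wide and at the ceiling. It ran from 14304 bp before the start edge to 5128 bp after it. In RefSeq the gene is 70.9 kb long against a span of 61 kb. Where the part before the start edge lies relative to the longer gene was not tested. In the list 7 peaks, or 0.0151%, were at least as wide, and 0.277% of ceiling peaks were. Behind it came 4 peaks of 399.78, 513.46, 121.84 and 253.20, with gaps of 510, 108, 152 and 103 bp. Joined across gaps of up to 1 kb, these 5 peaks formed 1 stretch of 29563 bp from 79358696 to 79388258, longer than the KDM6B peak.

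Further along BAHCC1 the scores varied. The next peak was 1504.94 from 79391423 to 79395577, then 882.47 and 791.42, and of the remaining 7 members 446.71 was the highest and 60.22 the lowest. Each of 10 equal bins of the 61 kb span had some coverage, 91.6% in the first, 95.7% in the second and 14.9% in the last. BAHCC1 and KDM6B were the only genes of the 9 without an empty bin. KDM2B had 1, SETD1B and KMT2B 4 each, SETD1A and KMT2D 8 each, and KMT2A and EZH2 9 each.

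**Figure D3:**
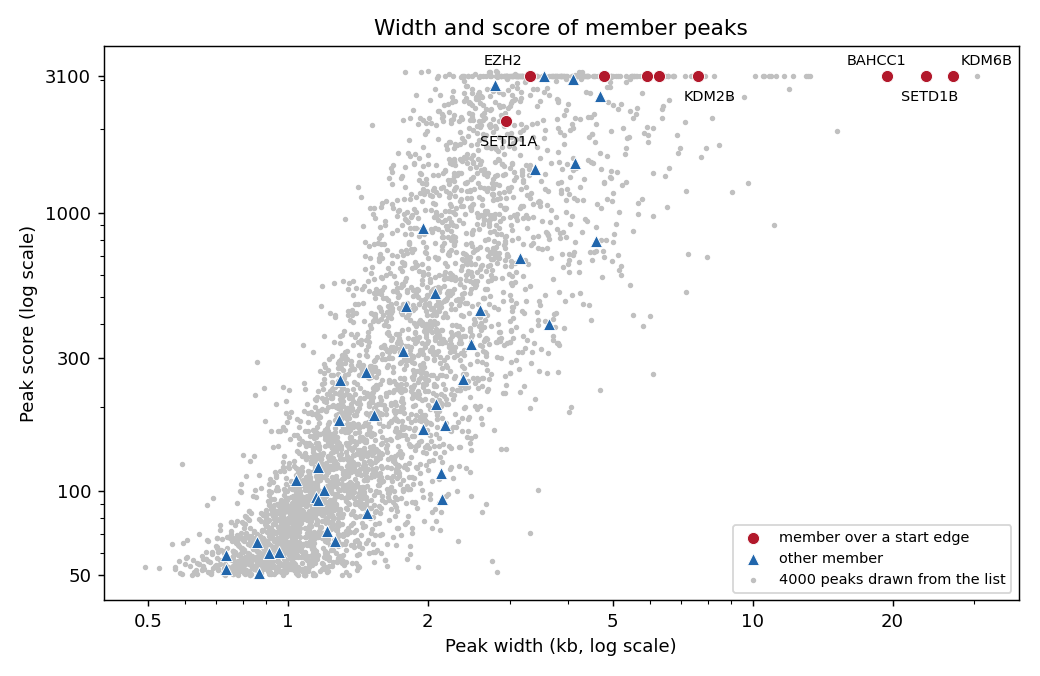
Width in kb and score of each peak, both on log scales. Red circles are the 9 start peaks, blue triangles the other 39 members and grey points 4000 peaks drawn at random from the list. KDM6B (27.017 kb), SETD1B (23.57 kb) and BAHCC1 (19.433 kb) stand apart in width at a score of 3100, and the start peak of SETD1A lies below the ceiling.

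Coverage summed up these differences. Peaks covered 171 kb of the 696 kb in the 9 windows, or 24.6%, beside 2.99% of the genome between the first and last peak of each chromosome. By gene the windows were covered to 75.0% at KDM6B, 55.7% at BAHCC1, 52.7% at SETD1B, 37.1% at KMT2B, 25.7% at SETD1A, 14.3% at KDM2B, 13.2% at KMT2D, 8.53% at KMT2A and 3.39% at EZH2. The first 3 of these also held the 3 widest peaks. Over the spans alone the shares were 100% at KDM6B, 54.0% at BAHCC1, 47.3% at SETD1B and 26.0% at KMT2B. They were 14.6% at KDM2B, 10.8% at SETD1A, 5.78% at KMT2D, 3.26% at KMT2A and 2.80% at EZH2. SETD1A thus fell below KDM2B, since 3029 of its 12331 covered bases lay in the span and the rest in the flanks. All-genome tiles of 40 kb had a median coverage of 0% and a 95th percentile of 15.6%, but 68.3% of these tiles held no peak.

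A closer comparison is with the 2325 tiles, 3.09% of all, that held a ceiling peak as 8 of the 9 windows did. Their median coverage was 13.4% (quartiles 8.29% and 27.0%). The share of such tiles covered at least as far as a window was 0.946% for KDM6B, 4.39% for BAHCC1, 5.29% for SETD1B and 14.8% for KMT2B. It was 47.5% for KDM2B, 50.5% for KMT2D, 73.5% for KMT2A and 97.5% for EZH2. SETD1A held no ceiling peak, so its 26.6% sets it against a class it is outside. Over all 40 kb tiles its share was 2.27%. KDM2B and KMT2D thus lay near the middle of such tiles and EZH2 near their lower end. The windows are 36 to 173 kb long, so a long gene is compared with a shorter tile. Tiles were laid along each chromosome without regard to genes, while each window was set around a gene.

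**Figure D4:**
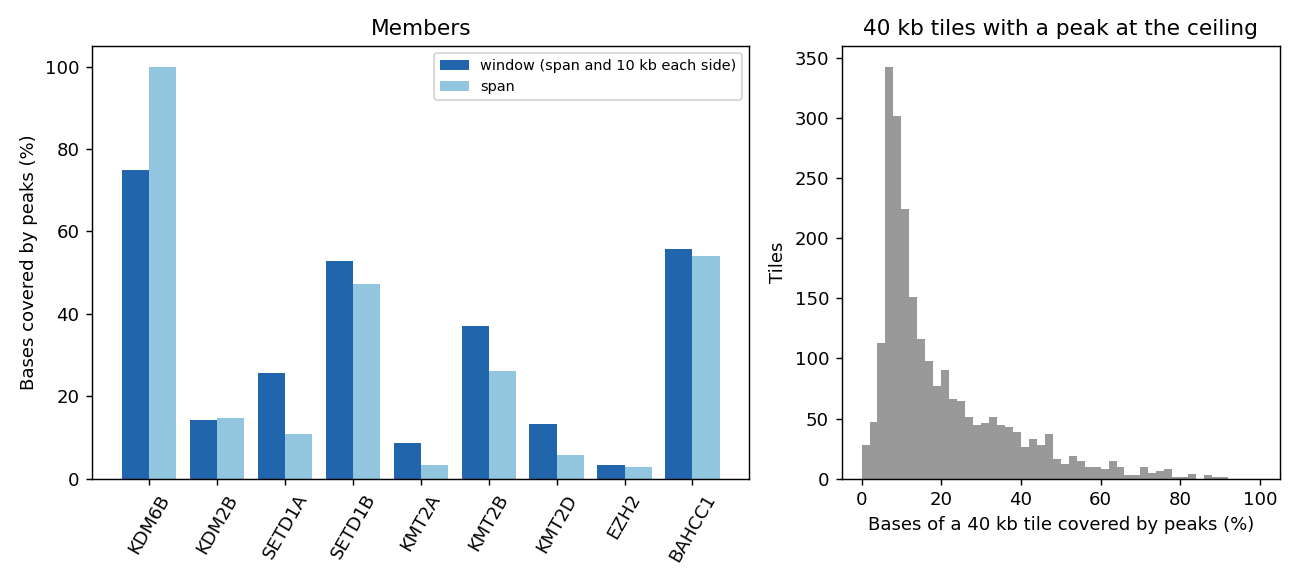
Left, share of bases covered by peaks in percent, for the window (dark) and the span (light) of each gene. Right, number of 40 kb tiles with a ceiling peak by the share of their bases covered. KDM6B, BAHCC1 and SETD1B exceed 50% of the window, EZH2 stands at 3.39%, and the tiles have a median of 13.4%.

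The 10 kb bound cut through places where peaks went on. Just inside, the outermost SETD1B member (100.97) overlapped its window by 9 bp. Just outside the windows, the nearest peak on each side of each gene, 18 in all, lay 1458 to 96411 bp away, with a median score of 600 and a range from 54.53 to 3100. Of these, 3 were at the ceiling, next to KDM6B, KMT2D and EZH2.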

How the data were processed

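Peaks of 1 V5 ChIP library against 1 input library were analysed. Reads were aligned with BWA 0.7.17 to hg19, per the submitters' processing notes. Peaks were called with MACS, per the peak names in the deposited file. The version of MACS is not given in the sources used here. For each peak the authors deposited a score, whose scale is not stated. The list has 46208 entries, of which 46207 lie on human chromosomes. Neither read counts nor depth were used.

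In Python 3.11.15 (pandas 2.3.3, numpy 2.4.6; scipy 1.17.1 for intervals), peaks overlapping each span widened by 10 kb were taken (minimum overlap 1 bp), and coverage, gaps, 10 equal bins of the span and 40 kb tiles were computed. Positions are counted from 1. The interval code was tested on simulated peaks. Gene strands came from the RefSeq promoter table, except for SETD1B. RefSeq gene tables are on GRCh38.p14 and gave names, lengths, gene order, promoter sequence and promoter spacing only, with no coordinates moved between builds. The genes named are the 9 of the rule and their RefSeq neighbours. The members and lists were chosen with earlier results of these data known. Alternatives were other flanks, score limits, merging of peaks and midpoint overlap. Other histone methylation genes were not analysed here, since hg19 annotation was not used.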

Additional observations from a re-analysis of the deposited data

How the results depend on the processing

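The limits for calling a value moved differed: a factor of 1.5 for counts, the 95% Wilson interval over bases for coverage, which is narrow, and any change for the widest peak. Under these limits 10 of 29 alternative values over the 9 genes together moved. Of the values by gene, 71 moved and 190 did not. Without a flank SETD1A went from 5 peaks to 2 and from 25.7% to 10.8% covered, and KMT2D coverage went from 13.2% to 5.78%. KDM6B coverage rose from 75.0% to 100%. The 48 peaks became 36 without a flank, 41 with a flank of 5 kb and also after merging, 58 with a flank of 20 kb and 46 by midpoint, all within the factor of 1.5, and 31 in the upper 50% of the list by score and 18 in the top 25%. The 24.6% of window bases covered became 19.6% without a flank, 23.7% with a flank of 5 kb and with one of 20 kb, 21.9% in the upper 50%, 18.2% in the top 25% and 24.9% after merging peaks up to 1 kb apart. The median over genes of the widest peak, 6279 bp, became 7181 bp after merging. Counting scores of 1000 or more in place of the ceiling gave 15 peaks in place of 9, a limit added after seeing the data. Tiles as long as each window, also added then, were covered as far as the window in 0.0347% (KDM6B) to 23.8% (EZH2) of all tiles, against 0.0386% to 23.5% with 40 kb tiles. For BAHCC1 the share was 0.135% with tiles as long as its window and 0.232% with 40 kb tiles. The score limits and flanks move these values by construction, and without a flank 7 of the 9 ceiling peaks were left, since the KMT2D start peak and the second KMT2A peak lie outside the spans. No paired analysis was possible because the labels give 1 ChIP and 1 input library. Depth was unknown, so no counting error can be given for any peak.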
